A study of Homo sapiens with 12 samples.

Results

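VCAM1, ICAM1, CSF1, CCL2, CXCL8, IL6, NFKBIA, TNFAIP3, NFKB1 and RELB are 10 genes known as targets or components of the NF-kB pathway, and they were described here in SK-N-SH cells grown on surfaces of 3 stiffnesses. They were chosen by name from a table of 60664 genes, and all 10 were present and had enough reads to be tested. SK-N-SH is an established human neuroblastoma line made up of neuron-like cells together with flat cells that adhere to the substrate. The study asked how the stiffness of the surface bears on gene expression and signalling in such cells. The groups were SK-N-SH cells on 1 kPa, on 8 kPa and on 30 kPa, with 4 RNA-seq libraries each and no other agent or genetic change named in the labels. Stiffness is given in kilopascals (kPa), where a lower value means a softer surface. The labels do not say whether the 4 libraries of a stiffness were separate cultures, so p-values measure the spread between these libraries, which may be technical.

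NF-kB is a family of dimeric transcription factors that inhibitor proteins hold in the cytoplasm. Inflammatory cytokines, microbial products and cell stress activate a kinase complex that marks the inhibitors for degradation, and the freed dimers enter the nucleus and switch on genes for adhesion molecules, cytokines and chemokines. Among their targets are the pathway's own inhibitors and subunits, which form feedback loops, so that the messenger RNA of such genes is often read beside that of the cytokines.

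The libraries at 1 kPa held 1.43e+07 to 1.59e+07 counts, those at 8 kPa 1.50e+07 to 2.53e+07, and those at 30 kPa 2.39e+07 to 2.78e+07. All 4 libraries at 1 kPa and replicate 1 at 8 kPa were shallow (5 in all), and the 7 others held at least 2.39e+07 counts. Depth and stiffness therefore cannot be told apart between 30 and 1 kPa, and at 8 kPa 1 shallow library stands beside 3 deep ones. Markers of adrenergic, neuron-like neuroblastoma cells summed to between 407 and 621 CPM (counts scaled to the size of the library) at 1 kPa, 510 to 729 CPM at 8 kPa and 553 to 635 CPM at 30 kPa, and 6 of the 7 were tested. The marker TH, the first enzyme of catecholamine synthesis, had at most 1 count in any library. Markers of mesenchymal or substrate-adherent neuroblastoma cells, all 6 of which were tested, summed to between 4512 and 4890 CPM at 1 kPa, 4059 to 4781 CPM at 8 kPa and 3751 to 4245 CPM at 30 kPa. Markers of both cell states were thus detected in each group.

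Upstream sequences of 250 bases from RefSeq (GRCh38.p14) were matched by symbol for 7 of the 10 genes, VCAM1, ICAM1, CXCL8, IL6, NFKBIA, TNFAIP3 and NFKB1. No sequence was matched for CSF1, CCL2 and RELB. The letters GGNNNTTCC, searched on both strands, were found in the window before the RefSeq start of all 7 genes, at 1 of the 2 start sites of NFKB1, against 17.1% of the 35116 RefSeq upstream windows of the same length. The longer kB consensus, a 10-letter motif whose matches mostly overlap those of the first, was found in the windows of VCAM1, IL6, NFKBIA, TNFAIP3 and NFKB1 (5 of 7) against 9.96% of windows. The windows of 5 of the 7 genes (ICAM1, CXCL8, IL6, TNFAIP3 and NFKB1) overlap a GENCODE v29 exon, while those of VCAM1 and NFKBIA do not. The motifs were picked with the genes' promoters known from the literature, so a match describes the letters and is neither a measured binding site nor a cause. The upstream window of VCAM1 is shown whole because VCAM1 carries the main result, and capitals mark every match to either motif in it. It lies on the forward strand at chr1:100719492-100719741, and the match nearest the gene spans positions -62 to -53 from the start of transcription.
VCAM1: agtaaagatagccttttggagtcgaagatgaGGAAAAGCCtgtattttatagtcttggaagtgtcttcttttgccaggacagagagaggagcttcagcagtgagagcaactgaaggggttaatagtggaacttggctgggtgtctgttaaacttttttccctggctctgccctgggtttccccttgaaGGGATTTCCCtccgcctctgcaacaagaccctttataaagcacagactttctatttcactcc

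For the 6 other genes with a matched sequence, 30 bases around a match are shown on the strand of the gene, so that the letters can be read beside those of VCAM1, with the match in capitals. They lie at chr19:10270924-10270953 (ICAM1), chr4:73740468-73740497 (CXCL8), chr7:22727117-22727146 (IL6), chr14:35404811-35404840 (NFKBIA, reverse strand), chr6:137867188-137867217 (TNFAIP3) and chr4:102501300-102501329 (NFKB1). TNFAIP3 had 2 such matches side by side.
ICAM1: gctttagcttGGAAATTCCggagctgaagc
CXCL8: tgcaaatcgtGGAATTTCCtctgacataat
IL6: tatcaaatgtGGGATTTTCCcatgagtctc
NFKBIA: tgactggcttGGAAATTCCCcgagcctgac
TNFAIP3: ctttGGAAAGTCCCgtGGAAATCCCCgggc
NFKB1: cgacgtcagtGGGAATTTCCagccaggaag

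None of the 10 genes was too low to measure. The smallest count in any library was 93 for TNFAIP3 and 125 for IL6, and every other gene had at least 441 counts in each library. Levels between genes were compared as CPM per kilobase of exon, averaged over the 12 libraries. The chemokine genes CCL2 and CXCL8 were highest at 757 ± 232 and 748 ± 526 CPM per kb (SD, n = 12), and their ranges overlapped. ICAM1 followed at 83.0 ± 13.2 CPM per kb and NFKBIA at 36.8 ± 5.83 CPM per kb, with no overlap between the ranges of CXCL8, ICAM1 and NFKBIA. IL6 at 14.5 ± 12.5, VCAM1 at 12.2 ± 3.30, NFKB1 at 11.2 ± 0.540, RELB at 10.4 ± 1.02 and CSF1 at 10.1 ± 1.90 CPM per kb came next, and the range of each overlapped that of its neighbour. By mean IL6 came before VCAM1, but it was the higher of these in only 4 of the 12 libraries. TNFAIP3 was lowest at 1.38 ± 0.200 CPM per kb, below every library of CSF1.

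**Figure D1:**
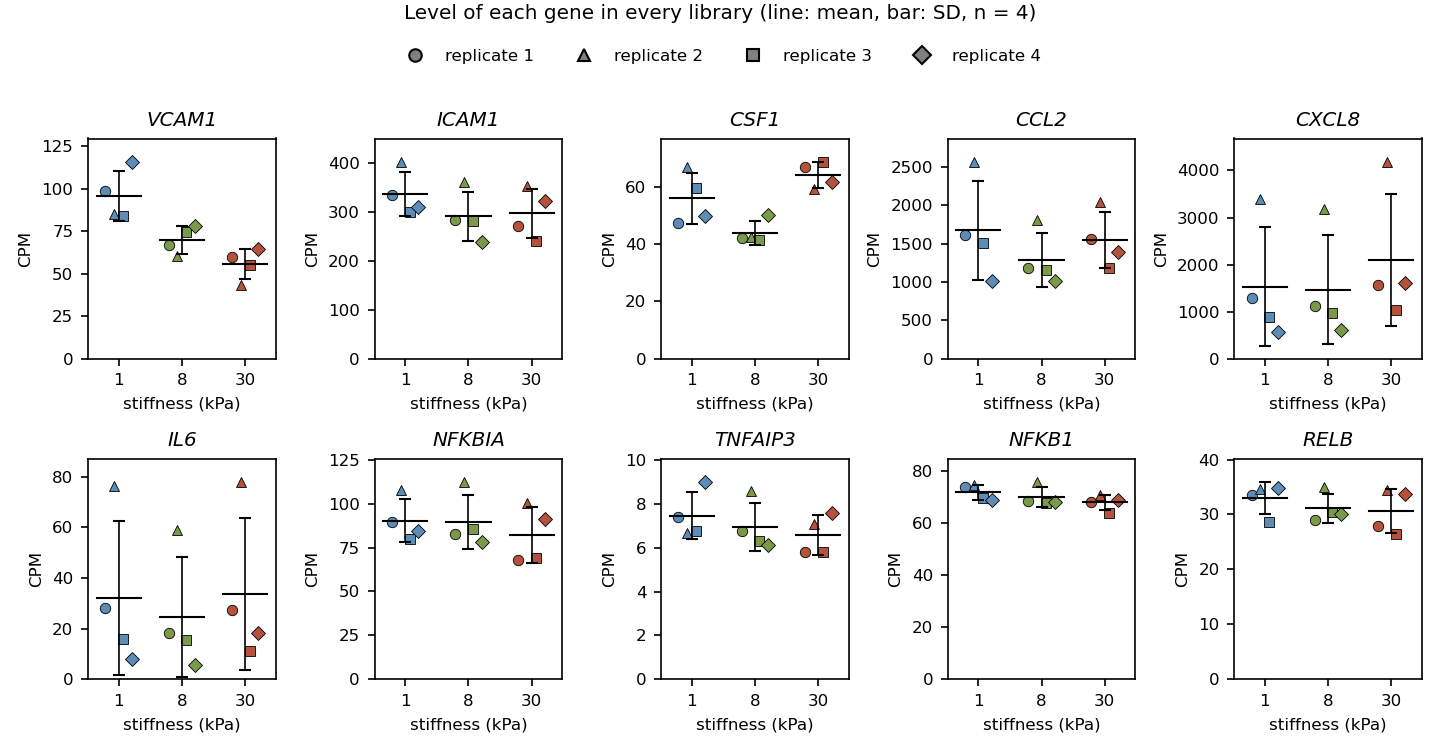
CPM of each of the 10 genes in every library, by stiffness in kPa on the x axis, with a marker shape for each replicate number, a line at the group mean and a bar of 1 SD (n = 4). The mean of VCAM1 is lower at each higher stiffness, that of CSF1 is lowest at 8 kPa, and CXCL8, IL6 and CCL2 are highest in replicate 2 of every group.

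VCAM1 was lower on both stiffer surfaces than on 1 kPa. VCAM1 encodes vascular cell adhesion molecule 1, a cell-surface protein that binds the alpha4 integrins of leukocytes, and it is known mainly from activated endothelium (ENSG00000162692, chr1:100719742-100739045, forward strand). Its level fell by 0.78 on the log2 scale at 30 kPa against 1 kPa and by 0.46 at 8 kPa against 1 kPa. Replicates 1 to 4 held 98.7, 85.2, 84.0 and 116 CPM at 1 kPa, 66.8, 60.2, 74.5 and 78.3 CPM at 8 kPa, and 60.2, 43.6, 55.5 and 64.4 CPM at 30 kPa. Every 8 kPa and every 30 kPa library was below every 1 kPa library, while the 30 kPa and 8 kPa libraries overlapped.

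At 30 kPa VCAM1 averaged 55.9 ± 9.00 CPM, against 95.9 ± 14.8 CPM at 1 kPa (SD, n = 4 each), a fold of 0.583 (log2 -0.78, SE 0.125, adjusted p = 0.00854). At 8 kPa it averaged 70.0 ± 8.06 CPM, a fold of 0.729 against 1 kPa (log2 -0.46, SE 0.124, adjusted p = 0.0296). Between 30 kPa and 8 kPa the log2 fold change was -0.32 (SE 0.124), which did not pass the threshold after adjustment (unadjusted p = 0.0206, adjusted p = 0.209). These and all later tests are edgeR's quasi-likelihood F-test on the counts of all 12 libraries, with p-values adjusted by the Benjamini-Hochberg method over all 17960 genes tested and a threshold of 0.05.

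When depth class (shallow or deep library) was added to the model, VCAM1 had a log2 fold change of -0.87 at 30 kPa against 1 kPa (unadjusted p = 0.00438, adjusted p = 0.444) and -0.52 at 8 kPa against 1 kPa (adjusted p = 0.160), and none of all genes tested passed in either comparison. Only 8 kPa held libraries of both classes. The depth term therefore rests on 8 kPa replicate 1 against the deep libraries of that stiffness. Among shallow libraries alone, VCAM1 stood at 66.8 CPM in 8 kPa replicate 1, against 84.0 to 116 CPM at 1 kPa. Without 1 kPa replicate 1, or without 8 kPa replicate 1, 2 or 3, the drop of VCAM1 at 8 kPa no longer passed (adjusted p = 0.0612, 0.0785, 0.0699 and 0.0647), whereas the drop at 30 kPa against 1 kPa passed with any 1 library left out (adjusted p at most 0.0443).

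The mesenchymal marker PRRX1, a homeobox factor of substrate-adherent neuroblastoma cells, and YAP1, a stiffness-responsive co-activator, were also lower at 30 kPa than at 1 kPa. Their log2 fold changes were -0.35 (SE 0.0626, adjusted p = 0.0144) and -0.22 (SE 0.0526, adjusted p = 0.0427). In that comparison 2 of 6 mesenchymal markers passed, where 1.33% of all tested genes passed as lower. The other markers of that list did not pass, and 1 of the 6 was above 0 (log2 0.09). At 8 kPa against 1 kPa all 6 were below 0. There 0 of the 6 passed with edgeR or limma-voom, 3 with DESeq2 and 3 at an unadjusted p under 0.05. Over all tested genes 5.6% passed there as lower with edgeR, DESeq2 called 3153 and 31.2% had an unadjusted p under 0.05. Of the 6 adrenergic markers tested, 2 were higher at 30 kPa than at 1 kPa and at 8 kPa than at 1 kPa, and 0 passed at 30 kPa against 8 kPa (0 at an unadjusted p under 0.05 and 0 with DESeq2). Over all tested genes 1.1% passed as higher at 30 kPa against 1 kPa and 8.17% at 8 kPa against 1 kPa. At 30 kPa against 8 kPa 17.9% of them had an unadjusted p under 0.05. The log2 fold change of GATA3, a zinc finger factor, was -0.04 at 30 kPa against 1 kPa (adjusted p = 0.851). PHOX2A, a homeobox factor of the adrenergic state, was higher at 30 kPa than at 1 kPa by 0.52 on the log2 scale (SE 0.128, adjusted p = 0.0475), and higher at 8 kPa than at 1 kPa by 0.49 (SE 0.129, adjusted p = 0.0264). In bulk RNA a smaller number of cells of a type and less RNA per cell cannot be told apart, and the part of these shifts in the drop of VCAM1 was not tested. The 6 endothelial markers summed to between 5.24 and 10.8 CPM at 1 kPa, 3.31 to 8.36 CPM at 8 kPa and 2.94 to 3.80 CPM at 30 kPa, and 2 of them were tested. CDH5 and KDR, which define endothelium, had at most 1 and 2 counts in any library, and PECAM1 averaged 1.64 ± 0.291 CPM at 30 kPa, against 5.50 ± 2.74 CPM at 1 kPa (SD, n = 4 each; adjusted p = 0.0521). At 8 kPa PECAM1 averaged 5.56 ± 2.71 CPM. The other endothelial marker tested, TEK, had another order, with 1.20 ± 0.271 CPM at 1 kPa, 0.766 ± 0.248 CPM at 8 kPa and 1.20 ± 0.372 CPM at 30 kPa. Its log2 fold change at 8 kPa against 1 kPa was -0.59 (SE 0.290, adjusted p = 0.181). Whether endothelial cells have a part in the level of VCAM1 was not tested. DESeq2 called 1 of the 2 tested endothelial markers as changed at 30 kPa against 1 kPa and 1 at 30 kPa against 8 kPa. Of all 17960 genes tested it called 1068 and 430.

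Among genes with a mean of at least 5 CPM (11854 compared), those whose log2 level was most like that of VCAM1 over the 12 libraries were ALDH3A2, a fatty aldehyde dehydrogenase (Pearson's r 0.961, Spearman's rho 0.958), ZFP36, which binds AU-rich messenger RNAs (r 0.953, rho 0.958), FOXJ2, a forkhead factor (r 0.938, rho 0.909), ELK4, an ETS factor (r 0.937, rho 0.972), and FRZB, a secreted Wnt antagonist (r 0.937, rho 0.881). None of the other 9 genes was among them. These are descriptions over libraries that share the 3 groups and the depth classes, and they carry no test.

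ICAM1, the other adhesion gene, is a ligand of the beta2 integrins of leukocytes (ENSG00000090339, chr19:10270835-10286615, forward strand). ICAM1 stood in replicates 1 to 4 at 334, 401, 299 and 310 CPM at 1 kPa, at 283, 360, 282 and 239 CPM at 8 kPa, and at 271, 352, 241 and 322 CPM at 30 kPa. All 3 groups overlapped. Its log2 fold change was -0.18 at 30 kPa against 1 kPa (95% interval -0.47 to 0.11), and at 8 kPa against 1 kPa it was -0.21 (95% interval -0.50 to 0.08). Neither passed the test, and the intervals leave room for changes in either direction. ICAM1 overlaps 2 antisense genes, which held 8 to 32 counts a library against at least 4308 for ICAM1. Whether counting used strand is not stated, so reads of the overlapping parts cannot be told apart.

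CSF1 was lowest at the middle stiffness. CSF1 encodes macrophage colony-stimulating factor, the growth factor that keeps macrophages alive (ENSG00000184371, chr1:109910242-109930992, forward strand). Its replicates 1 to 4 stood at 47.4, 66.8, 59.5 and 49.7 CPM at 1 kPa, at 41.9, 42.4, 41.3 and 50.0 CPM at 8 kPa, and at 66.8, 59.3, 68.5 and 61.5 CPM at 30 kPa. The 30 kPa libraries were all above the 8 kPa libraries, and the 1 kPa libraries overlapped both.

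At 8 kPa CSF1 averaged 43.9 ± 4.07 CPM, against 55.9 ± 8.99 CPM at 1 kPa (SD, n = 4 each), a fold of 0.787 (log2 -0.35, SE 0.0999, adjusted p = 0.0357). At 30 kPa it averaged 64.0 ± 4.37 CPM, a fold of 1.46 against 8 kPa (log2 0.54, SE 0.0981, adjusted p = 0.103), which did not pass. Against 1 kPa the log2 fold change at 30 kPa was 0.20 (SE 0.0985, adjusted p = 0.298). Tested against the average log2 level of the other groups, 8 kPa departed by -0.45 (SE 0.0869, adjusted p = 0.0238).

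The calls for CSF1 moved with the settings more than those for VCAM1. The 30 kPa against 8 kPa difference passed with no filter on low counts (adjusted p = 0.000251), with DESeq2 (adjusted p = 0.000474) and with only those groups in the fit (adjusted p = 0.0194). It also passed there without 1 kPa replicate 2 or 4 or 8 kPa replicate 4 (adjusted p = 0.0213, 0.0464 and 0.0156). The drop at 8 kPa against 1 kPa was lost with only those groups in the fit (adjusted p = 0.0766), with depth class as a term (adjusted p = 0.163) and without 1 kPa replicate 2 or 3 or 8 kPa replicate 1, 2 or 3 (adjusted p from 0.0726 to 0.104). The departure at 8 kPa was lost without 8 kPa replicate 1, 2 or 3 or 30 kPa replicate 1 (adjusted p at most 0.136).

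The genes most like CSF1 in log2 level over the 12 libraries were GTF2IP12 (r 0.968, rho 0.972), SESN2, a stress-induced regulator of growth signalling (r 0.949, rho 0.860), ITGA2, the alpha2 chain of a collagen-binding integrin (r 0.946, rho 0.895), C1QTNF6 (r 0.937, rho 0.881) and the non-coding host gene SNHG11 (r 0.933, rho 0.839). GTF2IP12 is a pseudogene with near-identical copies, so its counts are uncertain.

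**Figure D2:**
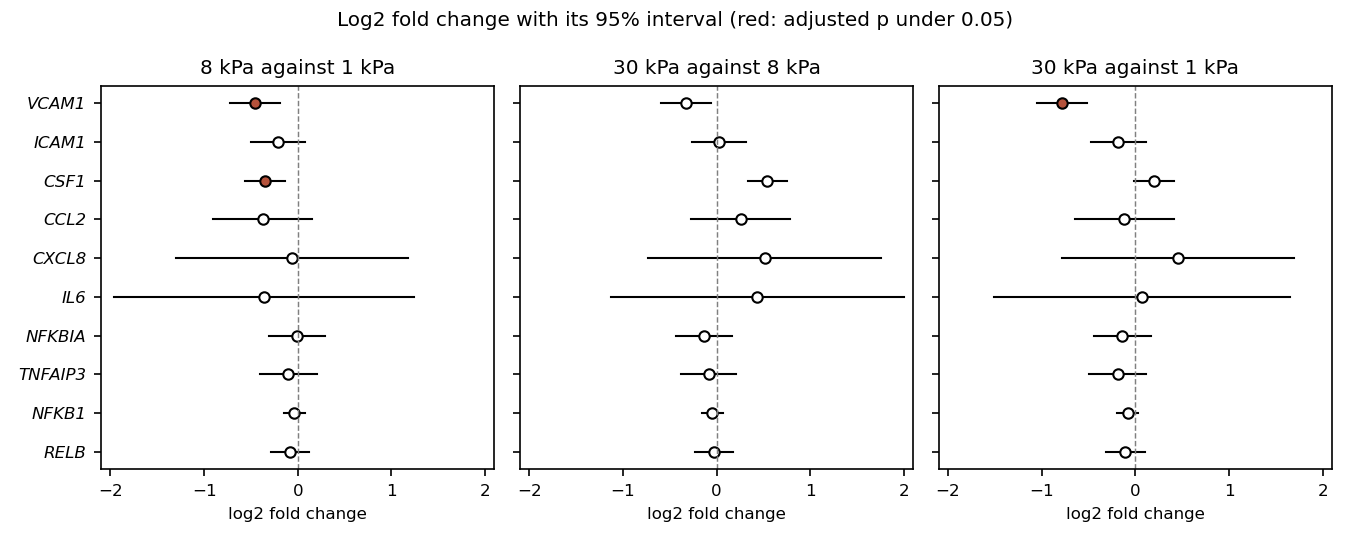
Log2 fold change of each gene (x axis) with its 95% interval in 3 panels, 8 kPa against 1 kPa, 30 kPa against 8 kPa and 30 kPa against 1 kPa, with red points past an adjusted p of 0.05. VCAM1 and CSF1 pass at 8 kPa against 1 kPa and VCAM1 at 30 kPa against 1 kPa, and the intervals of CXCL8 and IL6 are the widest of the 10.

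CXCL8, IL6 and CCL2, the chemokine and cytokine genes besides CSF1, spread widely between libraries of 1 stiffness, and none passed a test between stiffnesses. CXCL8 encodes interleukin-8, a neutrophil-attracting chemokine (ENSG00000169429, chr4:73740506-73743716, forward strand). In replicates 1 to 4 it stood at 1284, 3386, 894 and 572 CPM at 1 kPa, at 1122, 3171, 975 and 617 CPM at 8 kPa, and at 1572, 4176, 1032 and 1620 CPM at 30 kPa. In every group replicate 2 was the highest, 2.64, 2.83 and 2.58 times the next library at 1, 8 and 30 kPa, and the groups overlapped over most of their range.

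CXCL8 averaged 2100 ± 1410 CPM at 30 kPa, against 1534 ± 1269 CPM at 1 kPa (SD, n = 4 each), and the log2 fold change was 0.45 (95% interval -0.79 to 1.69). At 8 kPa against 1 kPa it was -0.06 (95% interval -1.30 to 1.18), and at 30 kPa against 8 kPa it was 0.51 (95% interval -0.73 to 1.75). The coefficient of variation within a stiffness was 82.7% at 1 kPa, 78.4% at 8 kPa and 67.1% at 30 kPa, and a change of 2-fold in either direction lies inside the interval at 8 kPa against 1 kPa.

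IL6 encodes interleukin-6, a cytokine of the acute-phase response (ENSG00000136244, chr7:22725884-22732002, forward strand). The 4 replicates in turn held 28.0, 76.3, 16.0 and 7.91 CPM at 1 kPa, 18.4, 59.0, 15.6 and 5.40 CPM at 8 kPa, and 27.2, 77.8, 11.0 and 18.4 CPM at 30 kPa. Replicate 2 again stood above the others, at 2.72, 3.21 and 2.86 times the next library, and the highest library of a group was 9.64, 10.9 and 7.10 times the lowest. The log2 fold change was 0.07 at 30 kPa against 1 kPa (95% interval -1.50 to 1.65) and -0.36 at 8 kPa against 1 kPa (95% interval -1.96 to 1.24). IL6 shares exon positions with STEAP1B on the other strand, which held 102 to 460 counts a library against 125 to 1849 for IL6. Reads of the overlapping parts cannot be told apart, so the lowest IL6 values are uncertain.

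CCL2 encodes the chemokine MCP-1, which attracts monocytes (ENSG00000108691, chr17:34255218-34257203, forward strand). In replicates 1 to 4 it stood at 1613, 2562, 1507 and 1015 CPM at 1 kPa, at 1183, 1808, 1155 and 1014 CPM at 8 kPa, and at 1557, 2043, 1188 and 1394 CPM at 30 kPa. Replicate 2 was the highest of each group, at 1.59, 1.53 and 1.31 times the next library, and the groups overlapped. The log2 fold change was -0.38 at 8 kPa against 1 kPa (95% interval -0.91 to 0.15) and -0.12 at 30 kPa against 1 kPa (95% interval -0.64 to 0.41).

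Replicate 2 was the highest library in all 3 groups for 6 of the 10 genes, CXCL8, IL6, CCL2, ICAM1, NFKBIA and NFKB1, against 6.7% of all tested genes. For NFKB1 the gap was small, at 1.01, 1.10 and 1.02 times the next library. VCAM1 did not share the pattern: its replicate 2 was the lowest library at 8 and 30 kPa, and its replicate 4 was the highest in all 3 groups, as for 2.31% of all tested genes. The labels do not say what libraries with the same number have in common. With replicate 2 left out of every group, a setting added after this pattern was seen, VCAM1 had a log2 fold change of -0.73 at 30 kPa against 1 kPa (adjusted p = 0.00877) and -0.44 at 8 kPa against 1 kPa (adjusted p = 0.0403). CSF1 had -0.23 at 8 kPa against 1 kPa (adjusted p = 0.172) and -0.40 for the departure at 8 kPa (adjusted p = 0.0568), neither of which passed. CXCL8 then had 0.62 at 30 kPa against 1 kPa (adjusted p = 0.272).

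**Figure D3:**
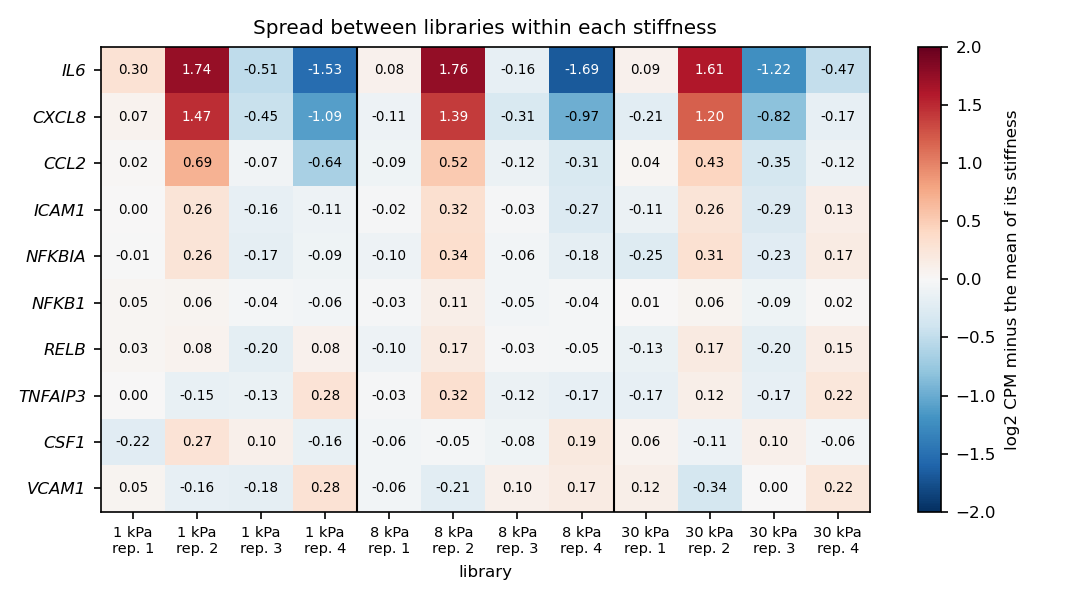
Log2 CPM minus the mean of its own stiffness (colour and printed value) for the 10 genes in rows and the 12 libraries in columns, replicates 1 to 4 at 1, 8 and 30 kPa. IL6 in replicate 2 is 1.74, 1.76 and 1.61 above its group means on the log2 scale, and VCAM1 in replicate 2 is at -0.16, -0.21 and -0.34.

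No inhibitor or subunit among the 10 genes passed a test between stiffnesses. NFKBIA encodes the inhibitor IkB-alpha, itself a target of NF-kB (ENSG00000100906, chr14:35401511-35404749, reverse strand). In replicates 1 to 4 it stood at 89.4, 108, 79.7 and 84.6 CPM at 1 kPa, at 82.7, 112, 85.4 and 78.4 CPM at 8 kPa, and at 68.0, 100.3, 69.1 and 91.2 CPM at 30 kPa. The groups overlapped, and the log2 fold change was -0.14 at 30 kPa against 1 kPa (95% interval -0.44 to 0.16).

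TNFAIP3 encodes A20, a ubiquitin-editing enzyme that shuts the pathway down (ENSG00000118503, chr6:137867188-137883312, forward strand). Its level ran from 6.68 to 8.99 CPM at 1 kPa, from 6.14 to 8.57 CPM at 8 kPa and from 5.80 to 7.60 CPM at 30 kPa. The log2 fold change was -0.19 at 30 kPa against 1 kPa (95% interval -0.49 to 0.12). The 3 groups overlapped, and an antisense gene over it held at most 4 counts.

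NFKB1 encodes p105, the precursor of the p50 subunit (ENSG00000109320, chr4:102501329-102617302, forward strand), and RELB encodes a subunit of the non-canonical arm (ENSG00000104856, chr19:45001430-45038198, forward strand). The mean and SD of NFKB1 over 4 libraries were 71.9 ± 3.02 CPM at 1 kPa, 70.1 ± 3.77 CPM at 8 kPa and 68.0 ± 2.91 CPM at 30 kPa, and its coefficient of variation of 4.20% to 5.37% was the smallest of the 10 genes. Its log2 fold change at 30 kPa against 1 kPa was -0.08 (95% interval -0.19 to 0.03). RELB averaged 32.9 ± 2.90 CPM at 1 kPa, 31.1 ± 2.64 CPM at 8 kPa and 30.6 ± 4.02 CPM at 30 kPa, with a log2 fold change of -0.10 at 30 kPa against 1 kPa (95% interval -0.31 to 0.10). Neither gene separated the groups.

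At 8 kPa against 1 kPa, 2 of the 10 genes were lower and 0 were higher, where 13.8% of all tested genes passed and 5.6% passed as lower. The log2 fold changes of all 10 were below 0 with TMM scaling, but that of NFKBIA was 0.02 when scaled by library size alone and 0.0090 with no filter. With 1 library left out, that of CXCL8 reached 0.68 and that of IL6 0.53. The 10 signs are not independent, since some of the genes vary together (IL6 and CXCL8 at Pearson's r 0.961 over the 12 libraries). The median of the 10 was -0.16, against -0.01 over all genes. In the 30 kPa against 1 kPa comparison 1 of the 10 passed as lower, where 2.43% of all tested genes passed and 1.33% passed as lower, and the median was -0.11. For 30 kPa against 8 kPa, 0 of the 10 passed with edgeR, with 2 at an unadjusted p under 0.05 (VCAM1 and CSF1), 1 with DESeq2 (CSF1) and 0 with limma-voom. Over all genes in that comparison 0% passed with edgeR, 17.9% had an unadjusted p under 0.05, DESeq2 called 430 and limma-voom 0. When 8 kPa was tested against the average log2 level of the 1 and 30 kPa groups, 1 of the 10 passed as lower, where 7.08% of all tested genes passed and 2.66% passed as lower. In each pairwise comparison 1 of the 10 genes had groups that did not overlap. It was VCAM1, lower at 8 kPa and at 30 kPa than at 1 kPa, where 7.36% and 6.06% of all tested genes were lower without overlap, and CSF1, higher at 30 kPa than at 8 kPa, where 4.79% were higher without overlap. The comparisons share their libraries and are not independent of each other.

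The 8 other NF-kB subunits and inhibitors, among them RELA, REL and NFKB2, were all tested, and 0 passed with edgeR, DESeq2 or limma-voom in any comparison, with 0 at 8 kPa against 1 kPa, 2 at 30 kPa against 8 kPa and 2 at 30 kPa against 1 kPa at an unadjusted p under 0.05. Over all tested genes those unadjusted shares were 31.2%, 17.9% and 18.9% in the same order, and 27.5% for the departure at 8 kPa. Unadjusted counts of the lists below are to be read beside these shares. RELA, the subunit that with p50 forms the classical dimer, had means and SDs over 4 libraries of 54.4 ± 2.17 CPM at 1 kPa, 52.6 ± 1.57 CPM at 8 kPa and 55.1 ± 1.56 CPM at 30 kPa. Its 12 libraries lay between 51.2 and 57.2 CPM.

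Of 26 NF-kB signalling genes, mainly receptors, adaptors and kinases but also regulators such as CYLD and TNIP1, 25 were tested. At 8 kPa against 1 kPa 1 was higher and 1 lower, where 13.8% of all tested genes passed, 8.17% as higher and 5.6% as lower. IRAK1, a kinase downstream of interleukin-1 and Toll-like receptors, changed by 0.45 on the log2 scale (SE 0.0876, adjusted p = 0.00962). IKBKB, the catalytic kinase that marks the inhibitors, changed by -0.30 (SE 0.0617, adjusted p = 0.0117). IRAK1 stood at 105, 93.9, 104 and 104 CPM at 8 kPa, against 71.7, 63.5, 73.0 and 89.0 CPM at 1 kPa, and the groups did not overlap. IKBKB stood at 65.7, 68.3, 66.7 and 77.1 CPM at 8 kPa, against 84.9, 89.9, 83.5 and 83.6 CPM at 1 kPa, again without overlap. Of all tested genes 9.41% were higher and 7.36% lower without overlap in that comparison. The 30 kPa against 1 kPa test called 1 as lower, TLR4, the receptor of bacterial lipopolysaccharide, which changed by -0.59 on the log2 scale (SE 0.138, adjusted p = 0.0427). In that test 1.33% of all genes passed as lower. The departure at 8 kPa passed for IRAK1 (0.34, SE 0.0742, adjusted p = 0.0301), the adaptor TAB2 (0.18, SE 0.0446, adjusted p = 0.0349) and IKBKB (-0.21, SE 0.0535, adjusted p = 0.0351). It passed for 7.08% of all tested genes. For 30 kPa against 8 kPa, 0 of the 25 passed with edgeR (5 at an unadjusted p under 0.05, 1 with DESeq2 and 0 with limma-voom). DESeq2 called 430 of all 17960 tested genes in that comparison. With depth class as a term, 0 of the 25 passed in the pairwise comparisons and 3 passed for the departure. Over all tested genes that term left 0 in the pairwise comparisons and 1268 for the departure.

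Of the 7 cytokines that activate the pathway, 3 were tested and 0 passed with edgeR, DESeq2 or limma-voom in any comparison, with 1 at an unadjusted p under 0.05 at 30 kPa against 1 kPa. TNF, the best known of them, had 0 to 9 counts a library and was not tested. Of 29 other NF-kB target genes 27 were tested, 1 (SELE) was too low to test and 1 was not analysed here. IRF1, an interferon-regulatory factor, was lower at 8 kPa than at 1 kPa by a log2 value of -0.31 (SE 0.0847, adjusted p = 0.0292). It stood at 20.9, 24.4, 23.3 and 25.2 CPM at 8 kPa, against 27.5, 29.7, 28.1 and 31.4 CPM at 1 kPa. Of all tested genes 13.8% passed at 8 kPa against 1 kPa, 5.6% as lower. No other of the 27 passed with edgeR in that comparison, where DESeq2 called 2 and limma-voom 1, and 0 passed at 30 kPa against 1 kPa or against 8 kPa (1 and 5 at an unadjusted p under 0.05, 0 with DESeq2 and 0 with limma-voom). For the departure at 8 kPa, 0 passed with edgeR (5 at an unadjusted p under 0.05), 0 with limma-voom, 3 with DESeq2 and 2 once depth class was in the model. Over all 17960 tested genes the departure passed for 1272 with edgeR, 1319 with limma-voom, 2296 with DESeq2 and 1268 with the depth class term. At 8 kPa against 1 kPa DESeq2 called 3153 of all genes and limma-voom 2347. The median log2 fold change of the 27 target genes was 0.05 at 30 kPa against 1 kPa and -0.04 at 8 kPa against 1 kPa.

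Receptors of the encoded proteins differed widely in level. Of 12 receptor genes 6 were tested and 0 passed with edgeR, DESeq2 or limma-voom (1 at an unadjusted p under 0.05 at 8 kPa against 1 kPa, 0 at 30 kPa against 8 kPa and 1 at 30 kPa against 1 kPa). CCR2, the receptor of CCL2, and CXCR1, a receptor of interleukin-8, had 0 counts in all 12 libraries, and CSF1R, the receptor of CSF1, had 11 to 53 counts a library. The receptors of interleukin-6 were well detected, with IL6ST, its signalling subunit, at 581 to 770 CPM and IL6R, which binds the cytokine, at 17.6 to 28.8 CPM. The VCAM1 receptor subunit ITGB1 was at 1516 CPM or more in every library, and its partner ITGA4 at 45.1 to 80.2 CPM. The 7 immune cell markers, of which CSF1R is 1, summed to between 1.71 and 2.51 CPM at 1 kPa, 1.57 to 2.62 CPM at 8 kPa and 1.67 to 3.07 CPM at 30 kPa, and PTPRC, which marks leukocytes, had 0 to 7 counts a library. The 6 fibroblast markers, all tested, summed to between 1313 and 1775 CPM at 1 kPa, 1280 to 1534 CPM at 8 kPa and 1520 to 1713 CPM at 30 kPa.

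**Figure D4:**
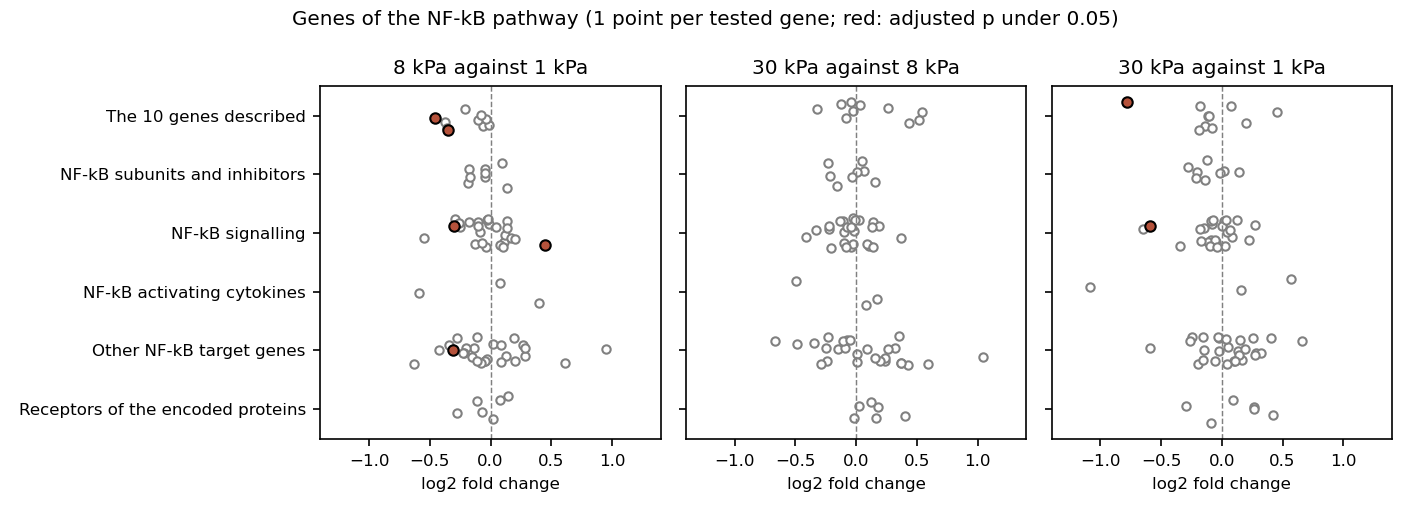
Log2 fold change (x axis) of each tested gene of 6 groups, the 10 genes described above and 5 groups of other pathway genes, in 3 panels of 8 kPa against 1 kPa, 30 kPa against 8 kPa and 30 kPa against 1 kPa, with red points past an adjusted p of 0.05. Of the other pathway genes, IRAK1, IKBKB and IRF1 pass at 8 kPa against 1 kPa and TLR4 at 30 kPa against 1 kPa.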

How the data were processed

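SK-N-SH RNA was sequenced at 1, 8 and 30 kPa (4 libraries each). The authors deposited unnormalized counts for every gene in each library. HISAT2 and the build GRCh38 are named in the submitters' processing notes. Counting tool, annotation, strand setting and filters are not given in the sources used here. The genes and lists were chosen with earlier results of these data known.

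Counts were filtered (filterByExpr, 17960 genes kept, at least 99.87% of the counts of each library), scaled by TMM and fitted in edgeR 4.0.16 (R 4.3.3) with stiffness as the only term. Each SE is the log2 fold change's size over the root of F, and intervals use the fit's degrees of freedom. CPM are TMM-scaled. Positions and exon lengths are from GENCODE v29 (GRCh38). The steps were tested on simulated data, and no pair of libraries within a group was a duplicate. Named were the 10 genes in every comparison, up to 3 genes of each list past the threshold per comparison, and 5 genes most like VCAM1 and CSF1 (prior count 2, mean of at least 5 CPM); any other gene named, such as RELA, TNF, PTPRC, GATA3 or ITGB1, was chosen after its values were seen. Single values of 2 cell type markers are not reported here. Alternatives were RLE scaling, library size alone, no filter (35940 genes), a stricter filter (1 CPM in 4 libraries), DESeq2 1.42.0, limma-voom (limma 3.58.1), only the compared groups, a replicate block, a depth class term and leaving out each library.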

Additional observations from a re-analysis of the deposited data

Results flagged for a closer look

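Within each stiffness, the highest or lowest library of each of the 10 genes was checked with Dixon's gap test at its 95% critical value, in 30 groups of 4 libraries. Chance flags about 1 in 20 such groups. CSF1 in 8 kPa replicate 4 stood apart at 50.0 CPM, against 42.4 CPM in the next library, and lay inside the range of the 1 kPa libraries. NFKB1 in 8 kPa replicate 2 stood apart at 75.7 CPM, against 68.7 CPM in the next.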

How the results depend on the processing

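The drop of VCAM1 at 30 kPa against 1 kPa passed under every alternative except depth class as a term, which only the 8 kPa libraries can estimate. The count of the 10 genes called at 8 kPa against 1 kPa was 2, and it became 1 (VCAM1) with only the compared groups, 0 with depth class as a term, 1 (VCAM1) without replicate 2 of every group, and 0 to 2 with 1 library left out. At 30 kPa against 8 kPa the count was 0, and it became 1 (CSF1) with no filter, with DESeq2 and with only the compared groups, and 0 to 1 with 1 library left out. At 30 kPa against 1 kPa it was 1 and became 0 with depth class as a term, and 1 to 1 with 1 library left out. For the departure at 8 kPa it was 1, 0 without replicate 2 of every group, and 0 to 1 with 1 library left out.

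Over all genes, 2472 passed at 8 kPa against 1 kPa, 978 with only the compared groups, 0 with a depth class term (4299 had an unadjusted p under 0.05), 720 without replicate 2 of every group and 544 to 3581 with 1 library left out. In the 30 kPa against 8 kPa test 0 passed, 330 with no filter, 430 with DESeq2, 61 with only the compared groups, 40 with the replicate block and 0 to 1049 with 1 library left out. In the 30 kPa against 1 kPa test 437 passed, 263 with library size alone, 875 with no filter, 1068 with DESeq2, 974 with the replicate block, 0 with a depth class term (1763 had an unadjusted p under 0.05) and 49 to 673 with 1 library left out. For the departure 1272 passed, 2296 with DESeq2, 2096 with the replicate block, 0 without replicate 2 of every group (3915 at an unadjusted p under 0.05) and 0 to 2890 with 1 library left out. The cause of these shifts was not tested.

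Same-numbered libraries of different groups deviated together with correlations across genes from -0.13 to 0.37 (mean 0.113, against -0.037 for libraries of different numbers), and 6 of the 12 libraries correlated best with their own number. All 3 pairs of replicate 2 were above 0.1 (0.24, 0.18 and 0.37), which is a hint from the data and not from the design, but not every pair of the other numbers was, so the numbers were not taken to pair the libraries. The replicate block changed no call among the 10 genes: VCAM1 at 30 kPa against 1 kPa and CSF1 for the departure stayed called, as did both at 8 kPa against 1 kPa. It did move adjusted p-values at 8 kPa against 1 kPa. That of CCL2 was 0.0516 with the block and 0.318 without, and that of ICAM1 was 0.100 and 0.312. CXCL8 had 0.953 and 0.958 there, where its log2 fold change was -0.06. In other comparisons CXCL8 moved more. Over the 10 alternatives that did not leave out 1 library alone, its lowest adjusted p was 0.0921 at 30 kPa against 1 kPa. At 30 kPa against 8 kPa it was 0.123. The main fit gave 0.731 and 0.672, and none of these passed. The intervals given for these genes come from the fit without the block.

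Some log2 fold changes that did not pass changed sign in other fits. Most were near 0, but CXCL8 had 0.51 at 30 kPa against 8 kPa and 0.45 at 30 kPa against 1 kPa, and IL6 had 0.43 at 30 kPa against 8 kPa, -0.36 at 8 kPa against 1 kPa and -0.40 for the departure. At 8 kPa against 1 kPa, NFKBIA had 0.017 with library size alone and 0.0090 with no filter; with 1 library left out CXCL8 ran from -0.76 to 0.68, IL6 from -1.31 to 0.53 and NFKBIA from -0.14 to 0.086. At 30 kPa against 8 kPa, TNFAIP3 had 0.0032 without replicate 2 of every group; with 1 library left out ICAM1 ran from -0.065 to 0.15, CXCL8 from -0.064 to 1.22, IL6 from -0.40 to 1.38, TNFAIP3 from -0.16 to 0.039 and RELB from -0.082 to 0.042. At 30 kPa against 1 kPa, CXCL8 had -0.048 and IL6 -0.47 with depth class as a term, and CCL2 had 0.00077 without replicate 2 of every group; with 1 library left out CCL2 ran from -0.30 to 0.17, CXCL8 from -0.12 to 1.20 and IL6 from -0.76 to 0.96. For the departure, TNFAIP3 had 0.0051 with library size alone, and NFKB1 had -0.0045 with the stricter filter, -0.0052 with depth class as a term and -0.016 without replicate 2 of every group. With 1 library left out it ran from -0.12 to 0.00066 for VCAM1, -0.99 to 0.084 for CXCL8, -1.34 to 0.047 for IL6, -0.068 to 0.12 for NFKBIA, -0.13 to 0.049 for TNFAIP3, -0.035 to 0.019 for NFKB1 and -0.091 to 0.00024 for RELB. In all 60 comparisons of a gene's group mean in CPM with its value under another scaling, the mean moved by less than 1 SD.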

Other observations

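The high libraries of CXCL8, IL6 and CCL2 were shared by other NF-kB target genes, some of them cytokine genes, which were looked at after their values were seen. Replicate 2 was the highest library in all 3 groups for 14 of the 27 other NF-kB target genes tested, against 6.7% of all tested genes. The 14 were CXCL1, CXCL2, CXCL3, CXCL5, CCL5, CCL20, CSF2, CSF3, LIF, BIRC3, IER3, BCL2A1, PTGS2 and ZC3H12A, of which the first 4 are chemokines of the CXCL8 kind. BCL2A1 and CSF3 had as few as 3 and 6 counts in a library. CXCL10, CX3CL1 and IL1RN of the same list were not highest in replicate 2 of every group. CXCL1 stood at 349, 737, 184 and 121 CPM in replicates 1 to 4 at 1 kPa, at 315, 847, 253 and 171 CPM at 8 kPa, and at 318, 863, 190.3 and 319 CPM at 30 kPa.

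IL1A and IL1B, the genes of the interleukin-1 cytokines that activate the pathway, were also highest in replicate 2 of every group. They are 2 of the 3 activating cytokines tested. The third, LTB, with 2 to 11 counts a library, was highest in replicate 4 at 1 and 30 kPa and in replicate 3 at 8 kPa. IL1B stood at 96.9, 191, 75.0 and 47.7 CPM in replicates 1 to 4 at 1 kPa, at 111, 279, 97.4 and 52.0 CPM at 8 kPa, and at 106, 281, 84.5 and 137 CPM at 30 kPa. Of the 25 signalling genes tested, 4 were highest in replicate 2 of every group (IL1R1, IL1RAP, CYLD and TNIP1). So were 2 of the 8 other subunits and inhibitors (NFKB2 and NFKBIZ) and 2 of the 6 receptor genes tested (CSF1R and IL6ST). The share over all tested genes was 6.7%. For CYLD the gap was small, at 1.07, 1.004 and 1.008 times the next library at 1, 8 and 30 kPa, and for IL1RAP it was 1.008 times at 8 kPa.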
